A study of Emberiza melanocephala with 4 samples.

Results

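The genes described here encode solute carriers and membrane pumps of the black-headed bunting (Emberiza melanocephala), a migratory songbird that breeds seasonally. They were taken by symbol, as every gene listed under a solute carrier, SLCO, Na/K-ATPase, Ca-ATPase, V-ATPase or ABC transporter name in any of the 4 libraries. This gave 25 of the 2239 genes that carried a reference match, 1509 of which had a symbol. They comprised 20 solute carriers and 5 pump subunits, and no SLCO or ABC transporter symbol was listed. RNA labelled as testis, from birds caught in the wild, was sequenced in 4 libraries, 1 each for a testicular state that the labels call sensitive, for early and for late stimulated, and for refractory. In birds that time breeding by day length, sensitive gonads can respond to long days by growing and refractory ones have stopped doing so. No genotype, age or number of birds per library is given in the sources used here. There are no replicates, so each difference is between individual libraries and has no test.

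Pumps spend ATP to move ions against their gradients. The Na/K-ATPase sets the sodium and potassium gradients across the plasma membrane, Ca-ATPases clear calcium from the cytosol, and the V-ATPase acidifies endosomes, lysosomes and secretory vesicles. Solute carriers use such gradients, or the gradient of the solute itself, to pass amino acids, lactate, nucleosides, bicarbonate, metals and nucleotides across membranes. In the vertebrate testis, lactate made by Sertoli cells is known to feed germ cells through monocarboxylate carriers. In the retina and brain, glutamate uptake by glia and ion pumping by neurons are among the best known uses of these families.

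Levels are the depth that the listed transcripts, named or not, put on a gene's exons. They are scaled to FPKM, that is per exon length and per library total, from aligned bases that came to 120.5 Mb in sensitive, 201 in early and 428 in late stimulated, and 318 in refractory. Transcripts without a reference match were listed only from a coverage of 2.5, which is 20.8 FPKM in sensitive, 12.5 in early and 5.84 in late stimulated, and 7.86 in refractory. Below this floor a gene at 0 may still be present. A gene has a value only where a transcript in any of the 4 libraries matched its reference model. Matched were 1147 of 10406 transcripts in sensitive and 1421 of 15542 in early stimulated. In late stimulated 1641 of 20488 were matched, and in refractory 1590 of 18303. A gene with no value may thus still be present. The libraries did not share the same tissue markers. Of 20 defining genes of Sertoli, Leydig and germ cells, 5 had a value, and together they reached between 10.2 and 16.7 FPKM in the 4 libraries, while DMRT1, DDX4 and STAR were among those with no value. The 12 photoreceptor markers with a value summed to between 923 and 1723 FPKM in the later 3 states, against 10.1 FPKM in sensitive, where 11 of them were at 0. The 16 neuron markers with a value summed to between 2341 and 2423 FPKM, against 20.4 FPKM in sensitive, with 13 at 0. The 8 measured markers of trunk and gonadal mesoderm, which include NR2F2, LHX9 and TCF21, went the other way, at 57.2 to 63.8 FPKM against 592 FPKM in sensitive, and so did the 2 measured smooth muscle and fat markers, at 0 against 733 FPKM in sensitive. None of 8 blood markers had a value. Of all 2239 genes, 1488 had covered exons in sensitive. These marker lists were chosen with earlier results of these data known, so their sums describe the libraries and test nothing. The header of the file for the library labelled sensitive abbreviates its name as sd, where its title has SE, while the other 3 headers match their titles. Libraries are named below by their labelled state only, and every comparison with sensitive rests on that label. The part of these marker differences in the results on transporters was not tested, and fewer cells of a type cannot be told apart from less RNA per cell.

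**Figure D1:**
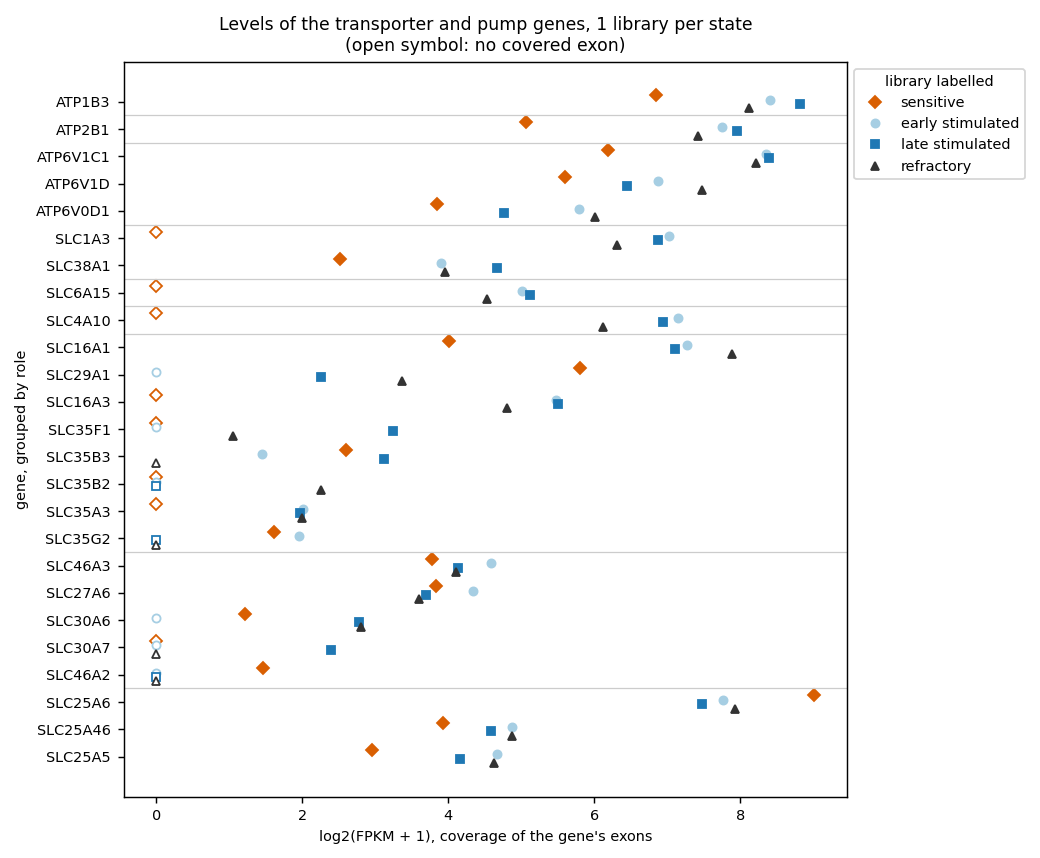
Level of each of the 25 genes in each library as log2(FPKM + 1) on the horizontal axis, with genes grouped by role and 1 symbol per library. Open symbols at 0 mark libraries with no covered exon: 8 in sensitive, 6 in early and 3 in late stimulated, and 4 in refractory. Of all 2239 genes, 1488, 1761, 1852 and 1864 had covered exons in the same order. The sensitive diamonds lie left of the other symbols for all 5 pump subunits. The median over all 2239 genes, uncovered ones included, was also lowest in sensitive, while that over covered genes was highest there.

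All 5 pump subunits had their lowest level in the library labelled sensitive. The median of all 2239 genes, those with no covered exon included, was also lowest there, at 4.17 FPKM. Among the genes with covered exons in each library, the median was instead highest in sensitive, at 19.4 FPKM. It was 16.6 FPKM in early and 13.2 in late stimulated, and 14.5 in refractory. The share of single genes lowest in sensitive was not counted. ATP1B3 (ENSFALG00000006985), the beta-3 subunit that brings the Na/K-ATPase to the plasma membrane, has 7 exons on the plus strand of FicAlb_1.4 scaffold JH603178.1 from 4145796 to 4169767. It stood at 114 FPKM in sensitive, 339 in early and 453 in late stimulated, and 277 in refractory. It was the most abundant of the 5 pump subunits in sensitive and in early and late stimulated, while in refractory ATP6V1C1 was higher, at 297 FPKM. The late stimulated library was 3.97 times the sensitive one. No alpha subunit of this pump carried a name. The plasma membrane calcium pump ATP2B1 (ENSFALG00000010638; 21 exons on the minus strand of JH603173.1 from 11175733 to 11210664) was at 32.4 FPKM in sensitive, 215 in early and 248 in late stimulated, and 171 in refractory. The other 3 libraries thus lay within 1.45-fold of each other, and sensitive lay below all of them.

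The V-ATPase has a peripheral sector that splits ATP and a membrane sector that passes protons. Its subunit C1, ATP6V1C1 (ENSFALG00000005922), which helps join the sectors, was at 72.0 FPKM in sensitive, 326 in early and 335 in late stimulated, and 297 in refractory. Its 13 exons lie on the plus strand of JH603199.1 from 7237226 to 7258896. Subunit D of the central stalk, ATP6V1D (ENSFALG00000005264; 8 exons on the plus strand of JH603186.1 from 2495647 to 2502546), was at 47.5, 116, 86.5 and 177 FPKM in state order (sensitive, early stimulated, late stimulated, refractory). ATP6V0D1 (ENSFALG00000007272), a subunit of the membrane sector with 8 exons on the minus strand of JH603200.1 from 6244666 to 6280819, was at 13.4, 54.4, 26.2 and 63.7 FPKM in the same order. Subunits D and d1 were both highest in refractory, then early stimulated, then late stimulated, and lowest in sensitive, while C1 was nearly level outside sensitive, with a highest over lowest ratio of 1.13. Transcripts on the opposite strand also covered ATP6V1D exons, at 3.53, 4.70, 0 and 21.9 FPKM in state order. The sources used here do not say whether the libraries kept strand, and the reads of each strand may not be separated. ATP6V1D was the only one of the 25 genes with such coverage, and no exon of the 25 overlapped another reference-matched gene.

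SLC1A3, SLC4A10 and SLC6A15, carriers of amino acids or bicarbonate, had no covered exon in sensitive. SLC1A3 (ENSFALG00000002060), the glutamate transporter known in mammals from astrocytes and retinal Müller glia, was at 0 in sensitive, 129 FPKM in early and 116 in late stimulated, and 78.6 in refractory. All 9 of its exons, on the minus strand of JH603245.1 from 2117429 to 2184250, were covered in these 3 libraries. SLC4A10 (ENSFALG00000000696; 25 exons on the plus strand of JH603315.1 from 54886 to 147836), a sodium-coupled bicarbonate transporter of neurons in mammals, was at 0, 141, 122 and 68.6 FPKM in state order. In these libraries both lay over the sensitive floor, by 1.68 to 2.71 on the log2(FPKM + 1) scale. SLC6A15 (ENSFALG00000010541), a neutral amino acid transporter of the neurotransmitter transporter family, was at 0, 31.3, 33.8 and 22.2 FPKM. These levels lay over the sensitive floor by less than 1 on the log2(FPKM + 1) scale, which is too little to measure a difference of 1. SLC38A1 (ENSFALG00000010150), which brings glutamine into cells, was at 4.70, 13.9, 24.3 and 14.4 FPKM, with its highest level in late stimulated, but in sensitive only 17.9% of its exon bases were covered.

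Carriers of monocarboxylates, which move lactate and pyruvate, were lowest in sensitive. SLC16A1 (ENSFALG00000000751), the widely used monocarboxylate transporter MCT1, has 4 exons on the minus strand of JH603191.1 from 2599047 to 2609847 and was at 15.2 FPKM in sensitive, 153 in early and 137 in late stimulated, and 235 in refractory, with 22.4% of its exon bases covered in sensitive. SLC16A3 (ENSFALG00000011671), the monocarboxylate transporter MCT4 known for lactate export from glycolytic cells, was at 0, 43.7, 44.1 and 27.0 FPKM in the same order. The refractory library thus held the highest level of SLC16A1 and, of the 3 libraries in which it was covered, the lowest of SLC16A3. Against the sensitive floor, SLC16A3 was higher by 1.04 in early stimulated and 1.05 in late stimulated on the log2(FPKM + 1) scale, and by 0.36 in refractory, where a difference of 1 is not measurable.

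SLC29A1 and SLC25A6 went the other way. SLC29A1 (ENSFALG00000011304), the equilibrative nucleoside transporter ENT1, was at 54.7 FPKM in sensitive, 0 in early and 3.76 in late stimulated, and 9.27 in refractory. Its 12 exons lie on the minus strand of JH603190.1 from 3187154 to 3193890. Listed transcripts touched all 12 in sensitive, none of them in early stimulated, 5 in late stimulated, but 8 in refractory. SLC25A6 (ENSFALG00000004160), an ADP/ATP carrier of the inner mitochondrial membrane, had the highest single level of the 25 genes, at 516 FPKM in sensitive, and stood at 216 in early and 177 in late stimulated, and 242 in refractory. Its 3 exons, on the minus strand of JH603176.1 from 8845531 to 8850443, were covered over their whole length in every library. The close paralog SLC25A5 (ENSFALG00000001605), another ADP/ATP carrier, was instead lowest in sensitive, at 6.78, 24.5, 16.9 and 23.7 FPKM. Reads of these paralogs can be assigned to either gene, so the split between them is uncertain. SLC25A46 (ENSFALG00000010698), an outer mitochondrial membrane protein with a role in mitochondrial shape, varied less, at 14.2, 28.2, 23.0 and 28.2 FPKM.

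The remaining 10 genes were lower or varied little. SLC46A3, a lysosomal carrier, was at 12.7, 23.0, 16.5 and 16.2 FPKM and SLC27A6, a fatty acid transporter, at 13.3, 19.1, 11.9 and 11.1 FPKM in state order. Both stayed within 1 on the log2(FPKM + 1) scale in every comparison, as did SLC25A46. The other 8 did not reach 10 FPKM in any library. The Golgi zinc transporter SLC30A6 was at 1.32, 0, 5.88 and 5.98 FPKM. Its coverage lay on exons 2 to 5 in sensitive, on all 13 exons in late stimulated and on exon 13 alone in refractory. No base of SLC30A6 was covered in both sensitive and refractory. The related SLC30A7 was covered in late stimulated alone, at 4.24 FPKM. SLC35A3, which carries UDP-N-acetylglucosamine into the Golgi, was at 0, 3.02, 2.93 and 2.97 FPKM. The carriers of the sulphate donor PAPS differed in where they were covered: SLC35B3 was at 5.03, 1.73, 7.70 and 0 FPKM, and SLC35B2 was covered in refractory alone, at 3.78 FPKM. SLC35F1 was at 0, 0, 8.46 and 1.06 FPKM, SLC35G2 at 2.07, 2.87, 0 and 0 FPKM, and SLC46A2 at 1.74 FPKM in sensitive and 0 in the others. Each of these 8 genes lay under the floor of every library in which it had no coverage, so no direction is measurable between such a library and the others. SLC35B2 and SLC29A1 lie 13556 bases apart on the same scaffold and on opposite strands.

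Over all 25 genes, the median level was 5.03 FPKM in sensitive, 24.5 in early and 23.0 in late stimulated, and 22.2 in refractory. The median of all 2239 genes was 4.17, 8.53, 8.01 and 8.59 FPKM in the same order. Both medians include genes with no covered exon. Over covered members alone, the median was 13.4, 43.7, 25.3 and 27.0 FPKM in that order. Over all covered genes it was 19.4, 16.6, 13.2 and 14.5 FPKM, so it was highest in sensitive. The covered genes differ between libraries. The sum over the 25 genes was 927 FPKM in sensitive, 516 of it from SLC25A6, and 1881, 1904 and 1775 FPKM in the other libraries.

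The comparison of early stimulated with sensitive asks what differed between the library of the first stimulated state and that of the sensitive state. Genes were compared where either library had at least 1 FPKM. Of the 22 members compared, 13 were higher and 5 lower by at least 1 in log2(FPKM + 1). Of all 1782 genes compared, 34.5% were higher and 24.9% lower. The median difference was 1.48 over the members and 0.11 over all genes. All 5 pump subunits were among the higher ones, at 2.97 times the sensitive FPKM for ATP1B3, 6.63 for ATP2B1, 4.53 for ATP6V1C1, 4.06 for ATP6V0D1 and 2.45 for ATP6V1D. SLC16A1 was at 10.1 times over all its exon bases, but at 2.90 times over those covered in both libraries, below ATP6V1C1, ATP6V0D1, ATP1B3, ATP2B1 and SLC25A5 on such bases. With the uncovered library at its floor, SLC4A10 was higher by 2.71 and SLC1A3 by 2.58, and SLC29A1 was lower, at -2.05. The lower members covered in both libraries were SLC25A6, at 0.42 times the sensitive level, and SLC35B3, at 0.35 times. Another 3 of the 18 members past the threshold lay under the floor, SLC35A3 among the higher and SLC30A6 and SLC46A2 among the lower ones. SLC6A15, also counted as higher, lay over the sensitive floor by only 0.57, too little to measure a difference of 1.

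Against the same sensitive library, late stimulated had 14 members higher and 4 lower of 24 compared, beside 34% higher and 28.3% lower of 1770 genes. The member median was 1.77, and that of all genes 0.00. Over the other settings the member median ran from 0.84, with a pseudocount of 5, to 1.91, with median-of-ratios scaling. For genes covered in both libraries, the median was 0.92 over members and -0.32 over all genes. ATP2B1 stood at 7.66 times, ATP6V1C1 at 4.65 times and SLC16A1 at 9.02 times the sensitive level (4.88, 4.64 and 2.75 times over bases covered in both), while ATP6V0D1 and ATP6V1D, at 1.96 and 1.82 times, did not reach a difference of 1, though they came to 1.17 and 1.11 with median-of-ratios scaling. SLC25A6 was at 0.34 times and SLC29A1 at 0.07 times the sensitive level. Of the 14 higher members 3 lay under the sensitive floor (SLC30A7, SLC35A3 and SLC35F1), and SLC6A15 lay over it by only 0.68. Of the 4 lower members SLC35G2 and SLC46A2 lay under the late stimulated floor. The refractory library, set against sensitive again, had 16 members higher and 5 lower of 24, beside 36.5% and 24.4% of 1806 genes, with a member median of 1.63 and a median of 0.23 over all genes. SLC16A1 reached 15.5 times, ATP2B1 5.29 times, ATP6V0D1 4.76 times and ATP6V1D 3.73 times the sensitive level. Over bases covered in both libraries SLC16A1 was at 4.04 times and ATP2B1 at 3.25 times, both below ATP6V0D1. SLC30A6, counted among the higher members, had no base covered in both. Here 3 higher members (SLC35A3, SLC35B2 and SLC35F1) and 3 lower members (SLC35B3, SLC35G2 and SLC46A2) lay under the floor. SLC16A3 and SLC6A15, also counted as higher, lay over the sensitive floor by only 0.36 and 0.09. These 3 comparisons share the sensitive library, the shallowest of the 4, and are not independent of each other.

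**Figure D2:**
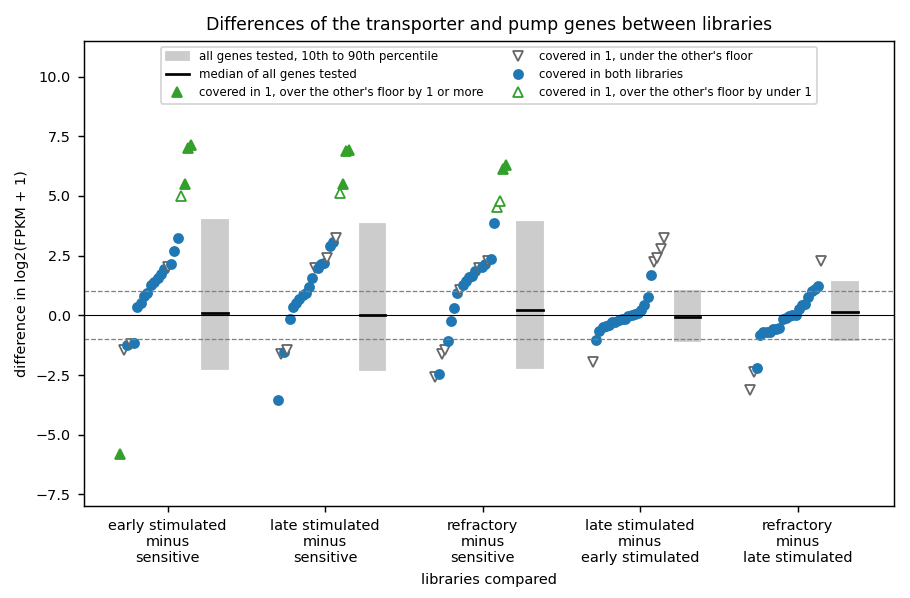
Difference in log2(FPKM + 1) of each transporter or pump gene compared in the 5 comparisons, drawn in rising order within each, beside a grey bar from the 10th to the 90th percentile of all genes compared with their median as a black line. In the 3 comparisons with sensitive, 13 of 22, 14 of 24 and 16 of 24 points lie above the upper dashed line at 1. Of all genes compared, 34.5%, 34% and 36.5% do so. These points include members not covered in sensitive, drawn as triangles, some of them under its floor. In the other 2 comparisons, 16 of 23 points lie between the dashed lines. In late against early stimulated 5 lie above and 2 below them, beside 10.3% and 11.2% of all genes. In refractory against late stimulated 4 lie above and 3 below, beside 18.6% and 10.6% of all genes.

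Between early and late stimulated, most members stayed within the threshold. Late stimulated had 5 members higher and 2 lower than early stimulated of 23 compared, beside 10.3% and 11.2% of 1682 genes. With median-of-ratios scaling the split was 5 higher and 1 lower, beside 11.3% and 9.84% of all genes. Of the 5 higher members 4 lay under the early stimulated floor (SLC29A1, SLC30A6, SLC30A7 and SLC35F1), and the last, SLC35B3, was at 7.70 FPKM in late stimulated against 1.73 in early stimulated, though over bases covered in both its difference was 0.42. ATP6V0D1 was lower in late stimulated, at 26.2 against 54.4 FPKM, a difference of -1.02 that came to -0.91 with that scaling and so no longer passed. The other lower member, SLC35G2, lay under the floor. SLC16A3, SLC35A3 and ATP6V1C1 differed least, by 0.01, -0.03 and 0.04.

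The refractory library had 4 members higher and 3 lower than late stimulated of 23 compared, beside 18.6% and 10.6% of 1714 genes. Under median-of-ratios scaling the split turned, to 2 higher and 4 lower, beside 15.2% and 13.2% of all genes. The V-ATPase subunits ATP6V0D1 and ATP6V1D were higher in refractory, at 2.43 and 2.05 times the late stimulated level, with differences of 1.25 and 1.03. With that scaling ATP6V1D came to 0.83 and no longer passed. ATP6V1C1 of the same pump was at 297 FPKM in refractory against 335 in late stimulated, a difference of -0.17. SLC29A1 was higher as well, at 9.27 against 3.76 FPKM, and SLC35F1 was lower, at 1.06 against 8.46 FPKM. Over bases covered in both libraries neither passed the threshold, at 0.88 and -0.60, while SLC30A6 passed it there, at 1.01 in place of 0.02, and SLC29A1 was at 0.95 with median-of-ratios scaling. The other 3 members past the threshold (SLC35B2, SLC30A7 and SLC35B3) lay under the floor. SLC4A10 at 68.6 against 122 FPKM, ATP1B3 at 277 against 453 and SLC1A3 at 78.6 against 116 were lower in value by less than 1, and SLC16A1 at 235 against 137 FPKM was higher by 0.78. With median-of-ratios scaling SLC4A10 came to -1.01.

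How much of each gene was covered differed between libraries, and this bears on several ratios. In late stimulated, the listed transcripts covered 100% of the exon bases of SLC16A1, ATP2B1 and SLC38A1, against 22.4%, 52.8% and 17.9% in sensitive. The value of ATP2B1 in sensitive came from exons 8 to 19 and 21, with no coverage of exons 1 to 7 and 20, and that of SLC38A1 from its last exons, 13 to 15. Uncovered bases count as 0, although coverage under the floor may be missing there. Over exon bases covered in both libraries, the SLC16A1 ratio to sensitive came to 2.90 in early and 2.75 in late stimulated, and 4.04 in refractory, in place of 10.1, 9.02 and 15.5. For ATP2B1 the ratios were 3.68, 4.88 and 3.25. Both genes were still higher by at least 1 in each comparison with sensitive.

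SLC38A1 did not hold its direction on these bases. Over 332 bases covered in both, it was at 12.5 FPKM in early stimulated against 26.3 in sensitive, a difference of -1.01, while late stimulated and refractory were higher by 0.88 and 0.46. SLC30A6 likewise turned, to -0.35 in late stimulated against sensitive, over 208 bases, and SLC35B3 to -1.17, over 657 bases. ATP1B3 moved up instead, to ratios of 4.05, 5.35 and 2.82, since 68.4%, 67.9% and 77.9% of its bases were covered in early stimulated, late stimulated and refractory, against 100% in sensitive. SLC25A46, within 1 over all exon bases, was higher by 1.27 in early stimulated and 1.26 in refractory over the bases covered in both, and by 1.08 and 1.01 over all exon bases with median-of-ratios scaling. SLC25A5, SLC25A6, ATP6V0D1 and ATP6V1D were covered over all their exon bases in every library, so their values do not depend on this choice. On such bases, early stimulated, late stimulated and refractory had 8 of 14, 5 of 15 and 8 of 13 members higher than sensitive and 3, 3 and 2 lower, beside 16.9%, 14.9% and 17.7% of all genes higher and 22.8%, 30.4% and 25% lower. This choice was made after the data were seen.

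**Figure D3:**
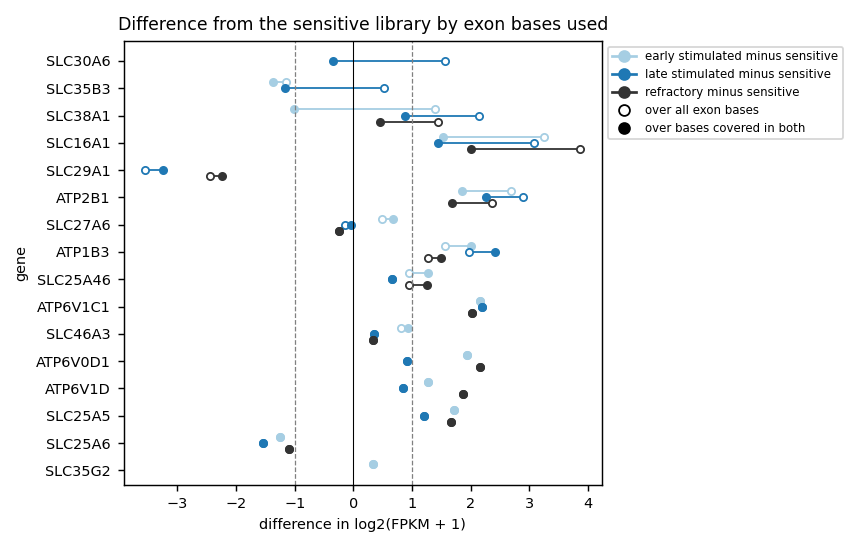
Difference from the sensitive library in log2(FPKM + 1) for genes with at least 100 exon bases covered in both libraries, taken over all exon bases (open circles) and over bases covered in both (filled circles), with genes in rising order of the share of bases covered in both. The lines are long for SLC30A6, SLC35B3, SLC38A1 and SLC16A1 and shorter for the V-ATPase subunits and SLC25A6, whose differences stayed at -1.25, -1.54 and -1.09.

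In some genes, coverage along the exons was uneven in a way that recurred across libraries, while in others it differed. SLC25A5 was highest over exon 3 in sensitive, early and late stimulated but over exon 2 in refractory, at 44.2 against 29.3 FPKM. ATP6V1C1 had no coverage over exon 1 in sensitive, early stimulated or late stimulated and 0.22 FPKM in refractory, while its exon 10 reached 162, 809, 820 and 514 FPKM. SLC4A10 exon 23 reached 846, 699 and 459 FPKM in early stimulated, late stimulated and refractory, against 17.5, 6.55 and 7.80 FPKM over exon 1. In 74 of 77 pairs of a member and a library the first exon lay below the gene's own level, or 96.1%, and over all genes with at least 2 exons this held in 87.4% of 4639 pairs. SLC29A1 in late stimulated was covered over exons 7 to 11 and in refractory over exons 3, 4 and 7 to 12, with a peak at exon 8 in both, at 24.7 and 48.8 FPKM, as in sensitive at 278 FPKM.

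**Figure D4:**
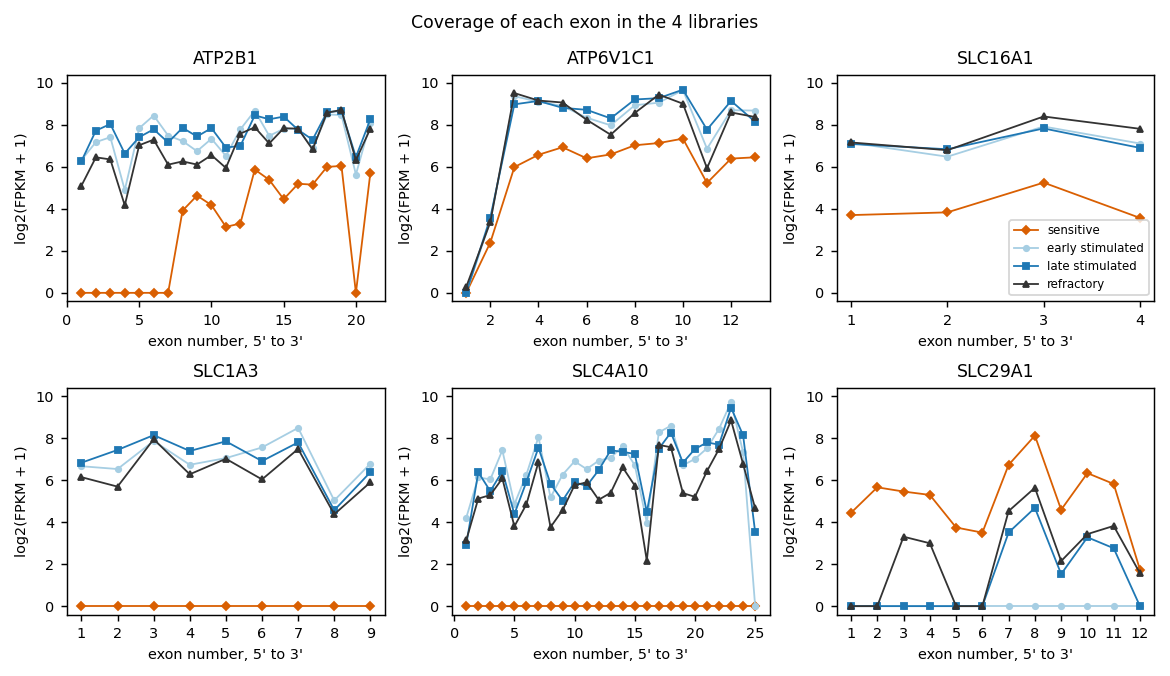
Coverage of each exon, from the 5' to the 3' end of the gene, as log2(FPKM + 1) in the 4 libraries for 6 genes. In ATP2B1 the sensitive line is at 0 over exons 1 to 7, in SLC1A3 and SLC4A10 over all exons, and in SLC29A1 it lies above the other lines in every exon, narrowly so at exon 12 (1.96 FPKM in refractory against 2.33 in sensitive).

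The listing under a gene's own name gave another picture for several members, because a transcript that matched no reference model carried no name. Members were listed under their names in 11, 11, 18 and 14 cases in state order, and in 25 further cases other transcripts covered the exons. ATP1B3 was listed under its name in sensitive alone, at 114 FPKM, and ATP6V1C1 in refractory alone, at 299.8 FPKM, although both had exon coverage in every library. SLC4A10 under its name had 1.31 FPKM in late stimulated and 3.98 in refractory, against exon coverage of 122 and 68.6 FPKM.

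Of 71 further genes of transport listed as partners of these proteins, other pumps and channels, 5 had a value. The mitochondrial outer membrane channel VDAC1 was at 44.0 FPKM in sensitive, 231 in early and 277 in late stimulated, and 243 in refractory, and the water channel AQP4, known from glia, at 0, 27.1, 35.1 and 22.2 FPKM. VDAC1 was higher than sensitive by at least 1 in each of the other libraries. AQP4 passed that threshold only with sensitive taken as 0. Its levels lay over the sensitive floor of 20.8 FPKM by less than 1 on the log2(FPKM + 1) scale, so a difference of 1 is not measurable. The mitochondrial calcium uniporter MCU was at 49.6, 29.5, 21.0 and 29.3 FPKM, the ribosome recycling factor ABCE1 at 198, 98.3, 109 and 116 FPKM, and the V-ATPase assembly factor VMA21 at 4.79, 6.51, 3.16 and 4.87 FPKM. MCU alone was lower by at least 1, in late stimulated against sensitive.

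The genes outside these families whose levels were most like those of SLC25A6, by Euclidean distance of log2(FPKM + 1) over the 4 libraries among genes reaching 20 FPKM, were PABPC1 at 0.37, YBX1 at 0.41, RPL21 at 0.52, HINT1 at 0.63 and HMGB1 at 0.63. PABPC1, which binds poly(A) tails, was at 525 FPKM in sensitive, 168 in early and 173 in late stimulated, and 229.5 in refractory. With 4 libraries this is a description of levels.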

How the data were processed

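RNA labelled as testis was analysed from 1 library per state. Per the file headers, the authors assembled transcripts library by library with StringTie 1.3.3b and gave it Ensembl 89 gene models of another songbird, the collared flycatcher (FicAlb_1.4), as a guide. The submitters' processing notes name Trimmomatic; the sources used here give no aligner. The deposited values are FPKM, TPM and coverage per transcript and coverage per exon, as text attributes per the file headers. They are not read counts, so no count-based interval is given.

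A gene's exons were taken from every transcript matched to it, over the 4 files together. Coverage by all listed transcripts on the gene's strand or without a strand was averaged over all these exon bases and divided by the file's constant ratio of coverage to FPKM. Where a gene was listed under its own name, the summed FPKM under it differed from this by less than 0.1 (log2) in 88% of 5571 gene and library pairs. Of the members' pairs, 46 of 54 did so. Another 25 member pairs, covered but not listed under the gene's name, were not compared. Where either library had at least 1 FPKM, a gene was called higher or lower from a difference of 1 in log2(FPKM + 1), so low genes are understated. Fitting and p-values need replicates, so none are given. Counts of members called are set beside the share of all genes called. The code (Python 3.11.15, numpy 2.4.6) was checked by multiplying the coverage of some genes by known factors in a copy of the late stimulated library. That check bears on neither the floor nor partial coverage. In 5 comparisons, 7 other settings were tried, and 1 more that was chosen after seeing the data.

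The members and lists were chosen with earlier results of these data known. Named were members at 50 FPKM or more, the 6 largest differences each way over 2 times the floor, members at 20 FPKM or more within 1 in every comparison, and all pump subunits. The remaining members were added so that each is accounted for, and so were the genes named beside them.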

Additional observations from a re-analysis of the deposited data

How the results depend on the processing

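With 1 library per state, no replicate could be left out, and no paired analysis was possible because the results come from no test. Of the 80 values of the counts of higher and lower members under alternatives, 44 stayed within 1.5 times the count given above and 36 did not. All 36 are given here, with the counts in the other direction beside them. Counts run against sensitive for early stimulated, late stimulated and refractory, then for late against early stimulated, and then for refractory against late stimulated. In that order, 22, 24, 24, 23 and 23 members were compared above. The numbers were the same with a pseudocount of 5, uncovered members at the floor or median-of-ratios scaling. Covered in both libraries were 14, 15, 14, 18 and 20. Over bases covered in both, 14, 15, 13, 18 and 20 were compared. A filter at 5 FPKM left 18, 20, 19, 19 and 20 members, and values under the genes' names 17, 23, 19, 19 and 21. With only members covered in both libraries, 8, 7 and 9 were higher and 2, 2 and 2 lower than sensitive, beside 18.1%, 17.3% and 19.9% of all genes higher and 21.7%, 29.4% and 23.7% lower. In that setting 1 was higher and 1 lower in late against early stimulated, beside 3.85% and 8.5%, and 3 higher and 1 lower in refractory against late stimulated, beside 14.8% and 6.36%. Over bases covered in both, 8, 5 and 8 were higher than sensitive and 3, 3 and 2 lower, with 0 higher and 1 lower in late against early stimulated, beside 2.56% and 9.61%, and 3 higher and 0 lower in refractory against late stimulated, beside 16% and 5.07%. A pseudocount of 5 gave 11, 10 and 12 members higher and 2, 2 and 3 lower than sensitive, beside 24.3%, 24.2% and 26% of all genes higher and 16.4%, 17.8% and 16.5% lower. It gave 2 higher and 0 lower in late against early stimulated, beside 4.22% each, and 1 higher and 2 lower in refractory against late stimulated, beside 8.98% and 4.08%. A filter at 5 FPKM gave 12, 12 and 13 higher and 3, 2 and 3 lower than sensitive, beside 33.2%, 32.9% and 34.7% higher and 23.8%, 26.7% and 23.6% lower, and 3 higher and 1 lower in late against early stimulated, beside 6.9% and 8.75%. With uncovered members at the floor, 1 was higher and 3 lower in late against early stimulated, beside 4.76% and 12.7%, and 3 higher and 1 lower in refractory against late stimulated, beside 16.3% and 8.34%. Values under the genes' names gave 13 higher and 7 lower in late stimulated against sensitive, beside 43% and 31.4%, 8 higher and 2 lower in late against early stimulated, beside 25.5% and 20.3%, and 7 higher and 7 lower in refractory against late stimulated, beside 28.5% and 24.4%. Their medians in the last 2 comparisons reversed, to 0.018 and 0.016, from -0.03 and -0.09. Median-of-ratios scaling gave 1 lower in late against early stimulated, where the median reversed to 0.055, and 2 higher in refractory against late stimulated, with the shares of all genes given above. Fewer genes are compared in several of these settings by construction. That scaling moved the median of all genes from 0.11 to 0.24, from 0.00 to 0.26 and from 0.23 to 0.29 in the comparisons with sensitive, from -0.07 to 0.04 in late against early stimulated and from 0.16 to -0.03 in refractory against late stimulated. Over all alternatives, the member median in early stimulated against sensitive ran from 1.08 to 1.64, with 1.48 given above. In late stimulated against sensitive it ran from 0.84 to 1.91, with 1.77 given above. In refractory against sensitive it ran from 0.91 to 1.88, with 1.63 given above. The cause of the other changes was not tested. The sensitive floor of 20.8 FPKM limits what can be said of members below it.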
